A study of Mus musculus with 4 samples.

Results

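Proteasome subunit genes were followed across 4 Affymetrix mouse expression arrays. A gene belonged to the set if its probe set carried 1 gene symbol that starts with Psma, Psmb, Psmc, Psmd or Psme followed by a digit and if its signal reached 500 on at least 1 array, with the brightest probe set (by mean signal over the arrays) standing for the gene. This gave 37 of the 4645 genes that reached 500 on an array, out of 12393 named genes. One of them, Psme3ip1, is a protein that interacts with an activator and not a proteasome component, so the results below are over the other 36 genes. The arrays held RNA from primary mouse embryonic fibroblasts, cells grown here from e14.5 embryos, with 1 array for each of 4 groups. These were tri-CH1 cells in hypoxia (0.1% oxygen), tri-CH1 cells in normoxia (21% oxygen), wild-type cells in hypoxia and wild-type cells in normoxia, each kept for 6 h at 37 °C under 5% carbon dioxide in fresh medium that had stood overnight at the same oxygen level. In tri-CH1 cells a deletion lies in the CH1 domain of each p300 allele and of 1 CBP allele, and the other CBP allele keeps its CH1 domain. How many embryos or litters a culture came from is not given in the sources used here. These proteins are coactivators of transcription, and the CH1 domain is a surface that HIF-1α, the oxygen-regulated transcription factor, binds.

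The proteasome is the protease that degrades proteins marked with ubiquitin chains in the cytosol and nucleus. Its 20S core is a barrel whose outer rings of alpha subunits gate the entry and whose inner rings of beta subunits hold the active sites. A 19S cap sits on the barrel: its base unfolds substrates with a ring of ATPases, and its lid removes the ubiquitin. Cells keep the subunits in balance, and the transcription factor NRF1 (Nfe2l1) raises many subunit genes together when proteasome activity falls short. In cells exposed to interferon, Psmb8, Psmb9 and Psmb10 replace the active beta subunits Psmb5, Psmb6 and Psmb7 and form the immunoproteasome, which serves antigen presentation.

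The promoters of 4 proteasome genes are shown because the results turn on them: Psmb5, the constitutive chymotrypsin-like subunit, and Psmb8, its interferon-inducible counterpart, stood on opposite sides of the signal limit of 500, Psmc5 had the largest changes among the 36 genes, and Psmd9 went opposite ways in the genotypes. They are the RefSeq sequences on GRCm38.p6, each 300 bases from 250 before the transcription start to 50 after it, in the direction of transcription, at chr14:54617946-54618245 (minus strand) for Psmb5, chr17:34197945-34198244 (plus) for Psmb8, chr11:106255935-106256234 (plus) for Psmc5 and chr5:123227940-123228239 (plus) for Psmd9. Capitals mark matches on either strand to the antioxidant response element TGACNNNGC, the CCAAT box CCAAT, the hypoxia response element core ACGTG, the interferon-stimulated response core (TTTC, any 2 bases, TTTC) or the gamma-activated site TTCNNNGAA.
Psmb5: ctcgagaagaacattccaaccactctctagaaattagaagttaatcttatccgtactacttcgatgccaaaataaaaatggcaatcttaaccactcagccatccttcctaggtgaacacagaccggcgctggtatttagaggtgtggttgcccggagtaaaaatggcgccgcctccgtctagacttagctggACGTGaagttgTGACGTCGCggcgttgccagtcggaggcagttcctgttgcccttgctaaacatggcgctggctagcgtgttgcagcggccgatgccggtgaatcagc
Psmb8: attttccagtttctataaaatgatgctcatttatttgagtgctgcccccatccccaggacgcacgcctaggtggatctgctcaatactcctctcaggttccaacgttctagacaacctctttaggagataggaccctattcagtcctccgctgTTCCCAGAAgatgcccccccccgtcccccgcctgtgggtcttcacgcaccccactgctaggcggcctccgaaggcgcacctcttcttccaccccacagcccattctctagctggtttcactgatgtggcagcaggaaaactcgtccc
Psmc5: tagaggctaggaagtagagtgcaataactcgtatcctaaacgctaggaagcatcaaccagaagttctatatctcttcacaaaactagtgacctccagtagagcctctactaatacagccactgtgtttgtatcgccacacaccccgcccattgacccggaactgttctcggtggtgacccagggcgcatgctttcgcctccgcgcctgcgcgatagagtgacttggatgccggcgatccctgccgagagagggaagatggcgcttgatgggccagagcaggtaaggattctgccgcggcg
Psmd9: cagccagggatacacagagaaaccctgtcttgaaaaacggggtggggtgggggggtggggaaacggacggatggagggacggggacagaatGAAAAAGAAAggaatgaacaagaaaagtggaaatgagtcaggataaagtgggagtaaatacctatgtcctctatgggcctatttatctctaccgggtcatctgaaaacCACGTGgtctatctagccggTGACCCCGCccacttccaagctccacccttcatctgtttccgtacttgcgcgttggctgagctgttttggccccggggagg
In Psmb5 the antioxidant response element begins 47 bases before the start and ACGTG 58 bases before it, with no overlap. The Psmb8 window holds a gamma-activated site 97 bases before the start. In Psmd9 the antioxidant response element begins 31 bases before the start, the interferon-stimulated core 159 before it, and ACGTG occurs on both strands in 1 overlapping match. None of these 5 sets of letters is in the Psmc5 window. Promoter sequences were held for 30 of the 36 genes, as 32 windows. The antioxidant response element was in 6 of the 32 windows, against 12.4% of all 32851 promoters, the CCAAT box in 11 against 37.4%, ACGTG in 7 against 19.6%, the interferon-stimulated core in 4 against 3.44% and the gamma-activated site in 1 against 8.30%. A match is a description of the letters and not a binding site.

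Facts of the arrays bear on all values that follow. Signals are the authors' scaled intensities, on a linear scale; a signal under 200 was raised to 200 before any log2 change was taken, and a change counts as 2-fold at a log2 size of 1. With 1 array per group there is no replicate error and no test, so differences between cultures, embryos or arrays within a group cannot be told apart from those between groups. To reach a common target the authors multiplied the 4 arrays by factors between 3.46 (wild-type normoxia) and 10.3 (tri-CH1 normoxia), which put the scaled background between 139.1 (wild-type normoxia) and 393.5 (tri-CH1 hypoxia). The array for wild-type normoxia was also from another lot than the others, so array lot and wild-type normoxia cannot be told apart. All 13 fibroblast markers reached 500 on an array. So did 2 of 6 epithelial markers (Krt8, up to 501.8, and Krt18, up to 588.3), 1 of 6 blood markers (Lyz2, up to 862.1), 1 of 4 neural markers (Nes, up to 1027), 0 of 5 endothelial and 0 of 4 muscle markers, while Epcam and Cdh1 (epithelial), Ptprc (blood), Pecam1, Cdh5, Tie1 and Tek (endothelial), Tubb3 and Sox2 (neural) and Myod1 and Myog (muscle) were under 200 on every array. Some fibroblast markers differed by genotype, in either direction. Lum had 2684 in hypoxia and 1562 in normoxia in tri-CH1, against 419.2 and 354.9 in wild type. Thy1 had 3274 and 3837 in tri-CH1, against 12389 and 13148 in wild type. The markers thus do not show that the cultures were alike. The hypoxia targets Bnip3, Slc2a1, Vegfa, Egln3, Ndrg1, Ero1a and Pdk1 were past 2-fold higher in hypoxia in both genotypes. The brightest Crebbp (CBP) probe set stayed under 200 on all 4 arrays, and its place relative to the deletion is not given in the sources used here, so it checks nothing about the genotype.

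The limit of 500 chose the genes, so their levels are a description, and signals of different probe sets are not compared with each other. Of 43 listed proteasome genes, 41 had a probe set with 1 symbol, and 36 of those reached 500. On all 4 arrays, 34 of the 36 were at 500 or more and 30 at 1000 or more; their median signal was 2001 on the tri-CH1 hypoxia array, 2454 on tri-CH1 normoxia, 2425 on wild-type hypoxia and 2512 on wild-type normoxia. The 5 genes under 500 on every array were Psmb8, Psmb9, Psmb10, the testis alpha subunit gene Psma8, at 66.9 or less, and the assembly chaperone gene Psmd10, at 358.8 or less. The gene just inside the limit was Psmd9, with a highest signal of 622.5, and Psmd10 was the gene just outside it. Psmb11, the thymus-specific beta subunit gene, and Psme2 had no probe set with 1 symbol.

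**Figure D1:**
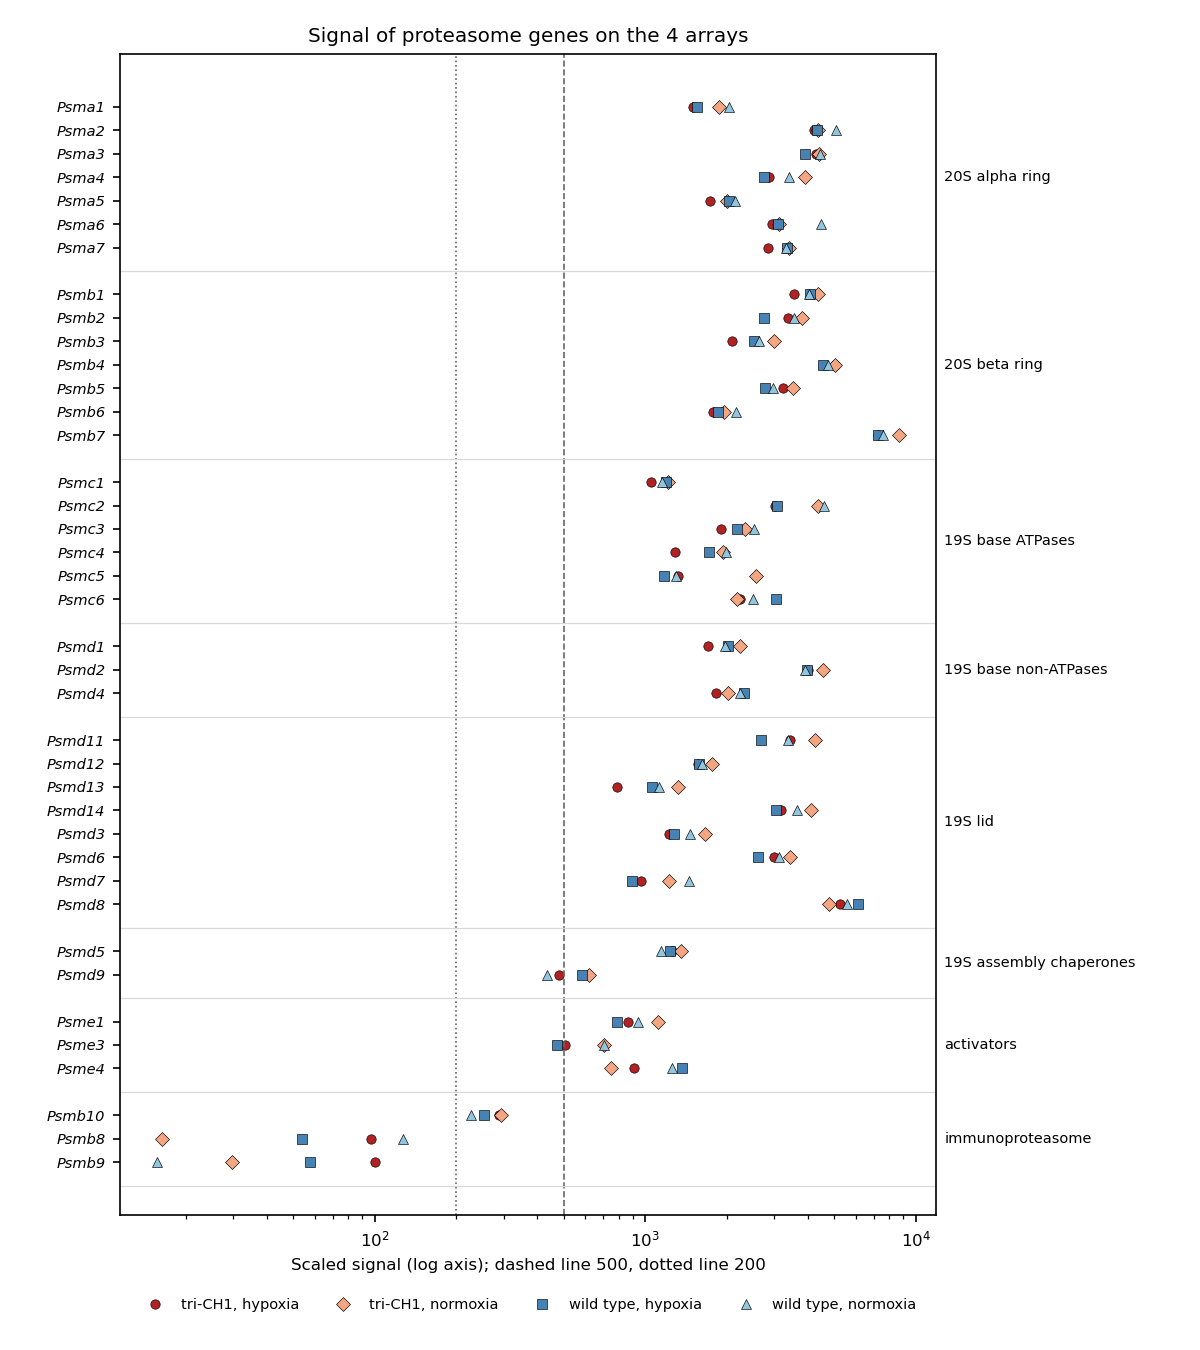
Scaled signal (log axis) of each of the 36 proteasome genes and the 3 immunoproteasome genes on the 4 arrays, 1 symbol per array, grouped by role. All core, base and lid genes lie to the right of 500 on every array, while Psmd9 and Psme3 cross it. Psmb10 lies between 200 and 500, and Psmb8 and Psmb9 lie left of 200 on every array.

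On the signals as deposited and by the brightest probe set, hypoxia left every proteasome gene within 2-fold in both genotypes. Most were slightly lower on the hypoxia array, and as deposited more so in tri-CH1. In tri-CH1, 32 of 36 genes were lower in hypoxia (88.9%), against 54.1% of the 4358 genes bright enough to count, and 4 higher (11.1%, against 45.8%). In wild type 25 of 36 were lower (69.4%), against 56.9% of 4125 genes, and 11 higher (30.6%, against 43.1%). The median log2 change was -0.25 in tri-CH1, where that of all 4645 genes was -0.03, and -0.13 in wild type, where that of all genes was -0.05. The sign of both medians and their place below all genes held under each floor, minimum signal, normalization and choice of probe set that was tried. The order of the genotypes did not: with scaling to the same median they were -0.19 in tri-CH1 and -0.20 in wild type. Less the median of all genes, they were then -0.22 and -0.07. A lower signal in a bulk culture cannot be told apart as fewer cells of a type or less RNA per cell.

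By the brightest probe set, no gene of the 36 was past 2-fold in either direction in either genotype. The exception was Psmc5, which quantile normalization put past 2-fold lower in tri-CH1. The second Psmc4 probe set, described below, was past 2-fold lower in wild type and is not in these counts. In tri-CH1 3.19% of all genes were past 2-fold higher and 0.987% lower, and in wild type 3.05% higher and 1.19% lower, so a count of 0 among 36 is near the background. At 1.5-fold, 3 genes were lower in tri-CH1 (8.33%, against 6.36% of all genes) and 3 others in wild type (8.33%, against 6.81%), again near the background; with quantile normalization or cyclic loess the wild-type count was 1 (Psmd7), without Psmc2 and Psme3. None was that much higher, against 8.56% of all genes in tri-CH1 and 6.91% in wild type. The shares that stood above those of all genes were thus of decreases of any size, not of large ones. Over both oxygen and genotype, 29 of the 36 genes (80.6%) stayed under 1.5-fold in all 4 comparisons, against 2788 of all 4645 genes (60.0%). The SD of the log2 change between the 36 genes was 0.24 in each genotype, against 0.49 over all genes. The SD between probe sets of 1 gene, over 1505 genes, was 0.29 in tri-CH1 and 0.25 in wild type, so the spread among subunits was no wider than that between probe sets of 1 gene.

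The hypoxia comparisons of the genotypes share no array. Of the 36 genes, 24 (66.7%) were lower in hypoxia in both, against 38.2% of all genes. Another 3 were higher in both (Psmc6, Psmd8 and Psme4), against 1277 of all 4645 genes. In tri-CH1 alone 8 were lower, against 698 of 4645, and in wild type alone 1 (Psmb4), against 852 of 4645. Over the 36 genes Pearson's r of the log2 changes was 0.30 and Spearman's rho 0.35, against 0.61 and 0.44 over all 4645 genes; genes of 1 array share its scaling and are no replicates. Of the 4 arrays, the tri-CH1 hypoxia array held the lowest signal for 18 of 36 genes, against 22.9% of all genes, and the wild-type hypoxia array for 12 (33.3%, against 32.2%). The tri-CH1 normoxia array held the highest for 20 (55.6%, against 32.0%) and the wild-type normoxia array for 11 (30.6%, against 24.1%). The tri-CH1 normoxia array also had the largest scale factor, and its summed signal of the 6 blood markers was 2081, against 1404 on tri-CH1 hypoxia, 1639 on wild-type hypoxia and 1585 on wild-type normoxia, with Ptprc under 200 throughout and 1 of the 6 (Lyz2) at 500; the part of either in the result was not tested.

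**Figure D2:**
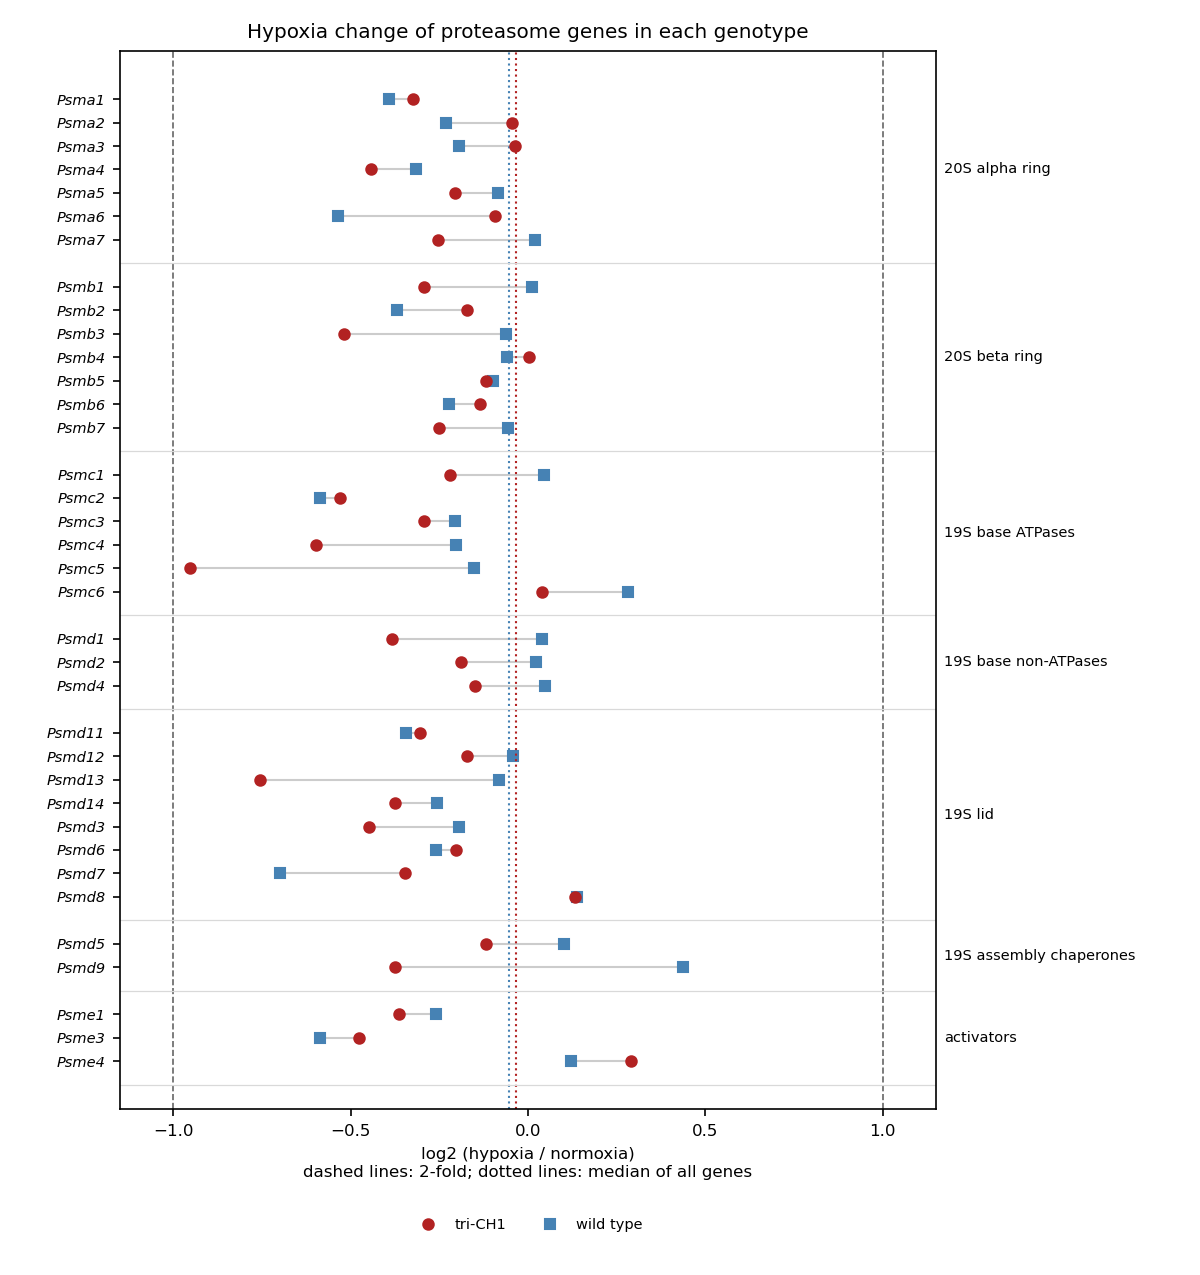
Log2 change in hypoxia over normoxia of each of the 36 genes in tri-CH1 (circles) and wild type (squares), with dashed lines at 2-fold and dotted lines at the median of all genes. No symbol passes a dashed line; Psmc5 in tri-CH1 comes closest, at -0.95.

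**Figure D3:**
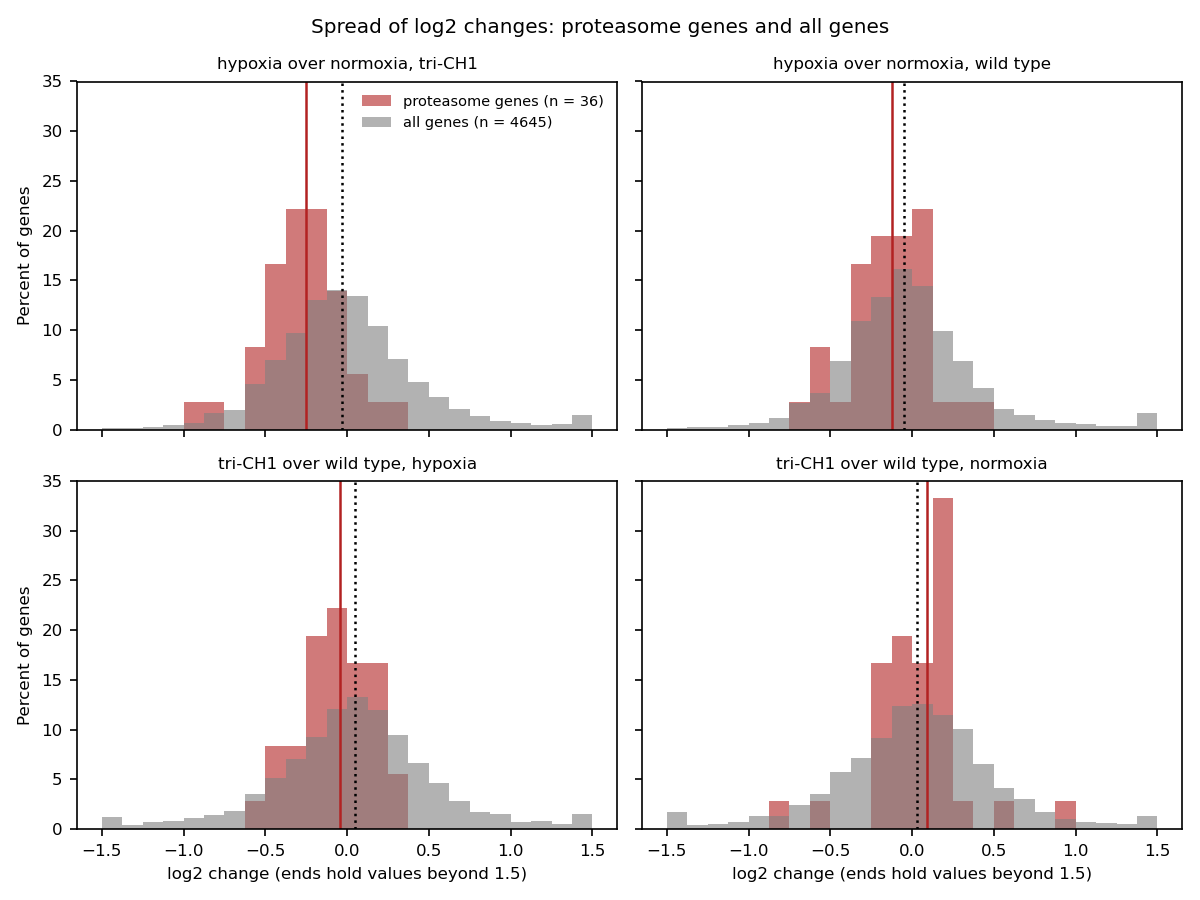
Percent of genes by log2 change for the 36 proteasome genes and for all 4645 genes, in each of the 4 comparisons, with vertical lines at the medians (solid for proteasome genes, dotted for all genes). The proteasome median lies left of the all-gene median in hypoxia in tri-CH1, at -0.25 against -0.03, and the distributions have SDs of 0.24 and 0.49 there.

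The alpha ring of the core, which gates the chamber, was lower in hypoxia in all 7 measured genes in tri-CH1 and in 6 of 7 in wild type, with median log2 changes of -0.21 and -0.23. Psma4 was the lowest in tri-CH1, with signals of 2865 in hypoxia and 3893 in normoxia (log2 change -0.44), against 2744 and 3414 in wild type (-0.32). Both hypoxia arrays were below both normoxia arrays for it. Psma6 had 2941 in hypoxia and 3139 in normoxia in tri-CH1 (-0.09), against 3089 and 4478 in wild type, the lowest change of the ring there (-0.54). The wild-type normoxia signal stood apart for Psma6 and the other arrays lay close together; a second probe set of nearly the same brightness gave -0.23 in each genotype. Psma7 had 2855 in hypoxia and 3406 in normoxia in tri-CH1 (-0.25), against 3358 and 3314 in wild type (0.02). By this probe set it was lower on the tri-CH1 hypoxia array than on the others. A second Psma7 probe set gave -0.24 in tri-CH1 and -0.19 in wild type, so the difference between genotypes was not shared between its probe sets. For Psma3 the signals were 4290 and 4399 in tri-CH1 (-0.04), against 3887 and 4445 in wild type (-0.19), the smallest change of the ring in tri-CH1. The remaining alpha genes, Psma1, Psma2 and Psma5, ranged from -0.32 to -0.04 in tri-CH1 and from -0.39 to -0.08 in wild type. A second Psma5 probe set of similar brightness lay outside both ranges, at -0.60 in tri-CH1 and -0.48 in wild type.

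The constitutive beta ring, which carries the catalytic sites, was lower in hypoxia in 6 of 7 genes in each genotype, with medians of -0.17 in tri-CH1 and -0.06 in wild type. The active-site subunits moved little. Psmb5, the chymotrypsin-like subunit, had 3244 in hypoxia and 3523 in normoxia in tri-CH1 (-0.12), against 2782 and 2977 in wild type (-0.10). Psmb6, the caspase-like subunit, had 1779 and 1953 in tri-CH1 (-0.13), against 1857 and 2165.5 in wild type (-0.22), and Psmb7, the trypsin-like subunit, 7287 and 8678 in tri-CH1 (-0.25), against 7289 and 7577 in wild type (-0.06). Each of these genes was lower in hypoxia in both genotypes, with no log2 change beyond -0.25. Among the structural beta subunits, Psmb3 was the lowest in tri-CH1, with 2093 in hypoxia and 3001 in normoxia (-0.52), against 2521 and 2630 in wild type (-0.06). That value rests on 1 probe set, since the other, nearly as bright, gave 0.05 in tri-CH1 and -0.08 in wild type. Psmb2 had 3374 and 3800 in tri-CH1 (-0.17), against 2755 and 3557 in wild type, the lowest change of the ring there (-0.37). Its wild-type hypoxia signal lay below the other arrays. Psmb1 had 3567 and 4369 in tri-CH1 (-0.29), against 4064 and 4032 in wild type (0.01), and Psmb4 had 5041 and 5028 in tri-CH1 (0.00), against 4555 and 4750 in wild type (-0.06). A dimmer Psmb4 probe set gave -0.91 in tri-CH1 and -0.26 in wild type, the widest gap in tri-CH1 between the 2 brightest probe sets of any of the 36 genes.

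The immunoproteasome genes gave no usable change. Psmb8 had signals of 96.6 in hypoxia and 16.4 in normoxia in tri-CH1, against 53.9 and 127.5 in wild type, and Psmb9 had 100.2 and 29.8 in tri-CH1, against 57.9 and 15.7 in wild type. All 8 values lie under the floor of 200, so they have no order. Psmb10 was above the floor, at 288.5 and 293.0 in tri-CH1 (-0.02), against 254.5 and 226.9 in wild type (0.17), but under 500 on every array. Of 21 listed genes of antigen processing and interferon response, 18 had a 1-symbol probe set and 3 reached 500: B2m, the light chain of class I MHC, the peptide-loading factor Tapbp and the transcription factor Irf1. Irf1 had 555.2 in hypoxia and 994.2 in normoxia in tri-CH1 (-0.84), against 448.2 and 536.7 in wild type (-0.26). The peptide transporter genes Tap1 and Tap2 stayed under 500 on every array, and Ifit2, Ifit3, Gbp2 and Oasl2, interferon-inducible genes, under 200.

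The base of the 19S cap held the largest decrease of the set. Of its 9 genes, 8 were lower in hypoxia in tri-CH1, with a median of -0.29, and 4 in wild type, with a median of 0.02. Psmc5, an ATPase of the unfolding ring, had 1327 in hypoxia and 2567 in normoxia in tri-CH1, a 1.93-fold decrease (-0.95), against 1173 and 1304 in wild type (-0.15). The tri-CH1 normoxia signal was the one that stood apart, and the other arrays lay between 1173 and 1327; Psmc5 had 1 probe set on the array, so no second one can be set beside it. Psmc4, another ATPase, had 1288 and 1948 in tri-CH1, 1.51-fold lower (-0.60), against 1727 and 1987 in wild type (-0.20), and here the tri-CH1 hypoxia signal was the low one. Psmc2 was lower in both genotypes, with 3027 and 4367 in tri-CH1 (-0.53), against 3063 and 4602 in wild type, 1.50-fold lower (-0.59). Its second probe set gave -0.50 in tri-CH1 and -0.43 in wild type, so the probe sets of Psmc2 were close in both genotypes. Psmc6 went the other way, with 2247 and 2187 in tri-CH1 (0.04), against 3037 and 2500 in wild type (0.28). Psmc1 and Psmc3 ranged from -0.29 to -0.22 in tri-CH1 and from -0.21 to 0.05 in wild type. Among the base subunits that are no ATPases, the scaffold gene Psmd1 had 1715 and 2235 in tri-CH1 (-0.38), against 2030 and 1975 in wild type (0.04). Psmd2, a scaffold that docks ubiquitin-like proteins, had 3999 and 4558 in tri-CH1 (-0.19), against 3958 and 3896 in wild type (0.02). For the ubiquitin receptor Psmd4 they were 1830 and 2028 in tri-CH1 (-0.15), against 2329 and 2253 in wild type (0.05). These 3 genes were lower in hypoxia in tri-CH1 and within 0.05 of 0 in wild type.

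The lid was lower in hypoxia in 7 of 8 genes in each genotype, with medians of -0.33 in tri-CH1 and -0.23 in wild type. Psmd13 was the lowest in tri-CH1, with 786.8 in hypoxia and 1329 in normoxia, 1.69-fold lower (-0.76), against 1061 and 1123 in wild type (-0.08). A dimmer probe set of Psmd13 gave -0.18 in tri-CH1 and 0.04 in wild type, so the size of that decrease was not shared between its probe sets. Psmd7, which pairs with the deubiquitinase Psmd14, had 967.8 and 1231 in tri-CH1 (-0.35), against 894.1 and 1451 in wild type, 1.62-fold lower and the lowest of the lid there (-0.70). Both hypoxia arrays were below both normoxia arrays for Psmd7. Psmd14, the deubiquitinase itself, and the structural lid subunits Psmd3, Psmd6 and Psmd12 ranged from -0.45 to -0.17 in tri-CH1 and from -0.26 to -0.04 in wild type. A dimmer Psmd6 probe set lay outside both ranges, at -0.70 in tri-CH1 and -0.60 in wild type. Psmd11, a lid subunit that braces the core, had 3427 and 4236 in tri-CH1 (-0.31), against 2672 and 3389 in wild type (-0.34), and Psmd8 was the exception, with 5243 and 4780 in tri-CH1 (0.13), against 6127 and 5570 in wild type (0.14). Psmd8 was higher in hypoxia by nearly the same amount in each genotype. Psmd11 had 4 probe sets at 500, and 3 of them had changes between -0.31 and -0.25 in tri-CH1 while the other gave 0.58.

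The assembly chaperones of the cap, which leave before the particle is complete, gave 2 measured genes that were lower in hypoxia in tri-CH1 and higher in wild type. Psmd9 had 479.7 in hypoxia and 622.5 in normoxia in tri-CH1 (-0.38), against 587.0 and 433.8 in wild type (0.44). Its signals were close to the limit of 500, and its other probe set stayed under 200. Psmd5 had 1255 and 1361 in tri-CH1 (-0.12), against 1233 and 1149 in wild type (0.10). Psmd10, which did not reach 500, had 303.4 and 235.8 in tri-CH1 (0.36), against 212.6 and 358.8 in wild type (-0.76).

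The activators, alternative caps of the core, split. Psme3, the nuclear PA28 gamma, was lower in hypoxia in both genotypes, with 507.1 and 706.0 in tri-CH1 (-0.48), against 470.8 and 706.2 in wild type, 1.50-fold lower (-0.58). Its second probe set gave -0.49 in tri-CH1 and -0.93 in wild type, so all 4 values lay on the same side. Psme1, PA28 alpha, had 866.3 and 1115 in tri-CH1 (-0.36), against 787.2 and 941.7 in wild type (-0.26). Psme4, the single-chain activator PA200, was higher, with 912.8 and 746.5 in tri-CH1 (0.29), against 1373 and 1262 in wild type (0.12); of its 2 other probe sets, one gave 0.33 and 0.19 and the other -0.16 and -0.21, in that order. The partner of Psme1, Psme2, shares its probe set with Psme2b and is not counted: that probe set had 882.9 and 1040 in tri-CH1 (-0.24), against 544.9 and 695.1 in wild type (-0.35). Psme3ip1, left out of the 36, had 470.2 and 489.9 in tri-CH1 (-0.06), against 639.0 and 508.1 in wild type (0.33).

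The difference between the genotypes' hypoxia changes, tri-CH1 minus wild type, had a median of -0.12 over the 36 genes, against 0.03 over all genes, and was below 0 for 23 of 36 genes, against 2182 of 4645. It was -0.5 or lower for 3 of 36 genes, against 422 of 4645, a share near that of all genes. It was 0.5 or higher for 0, against 510 of 4645. The 3 genes were Psmd9 at -0.81, Psmc5 at -0.80 and Psmd13 at -0.67, and the dimmer Psmd13 probe set gave -0.215. By role, the median difference was -0.24 in the base, with 8 of 9 genes below 0, -0.06 in the lid and 0.02 in the core. Scaling each array to the same median turned the median of the 36 to 0.02, while that of all genes went to 0.18; less that shift, the 36 stood at -0.15.

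Tri-CH1 and wild-type arrays differed little in the 36 genes. In hypoxia, the median log2 difference of tri-CH1 over wild type was -0.04, against 0.05 for all genes, with 22 of 36 genes lower (61.1%, against 44.9% of 4233 genes) and 14 higher (38.9%, against 55.1%). In normoxia it was 0.09, against 0.03 for all genes, with 21 of 36 higher (58.3%, against 53.5% of 4333 genes) and 15 lower (41.7%, against 46.5%). With scaling to the same median the normoxia value turned to -0.13, and that of all genes went to -0.20, so the direction in normoxia depends on the scaling. No gene was past 2-fold at either oxygen level, except 1 (Psmc5, higher in normoxia) with quantile normalization or cyclic loess. As deposited, 3.76% of all genes were higher and 3.31% lower in hypoxia and 3.16% higher and 3.48% lower in normoxia. The genotype comparisons share no array with each other, and each shares 1 array with each hypoxia comparison, so their values are not separate evidence for the same genes. Over all genes, the lowest value of tri-CH1 over wild type in hypoxia was that of Xist, at -3.75. Differences between the cultures other than the CH1 deletions cannot be told apart from genotype here.

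Psme4 was 1.5-fold or more lower in tri-CH1 at both oxygen levels (2.78% of the 36 in each case, against 8.88% of all genes in hypoxia and 9.51% in normoxia), by 1.50-fold in hypoxia (-0.59) and 1.69-fold in normoxia (-0.76). Its other probe sets gave -0.03 and 0.04 in hypoxia and -0.18 and -0.01 in normoxia, so the brightest one alone showed it. Psmc5 was 1.97-fold higher in tri-CH1 in normoxia (0.98), the only gene 1.5-fold or more higher there (2.78%, against 10.2% of all genes), and 0.18 higher in hypoxia. The normoxia difference and the hypoxia decrease of Psmc5 both use the tri-CH1 normoxia array, where its signal stood apart. Among the others, Psmd11 was higher in tri-CH1 at both levels, by 0.36 in hypoxia and 0.32 in normoxia, and Psmb5 by 0.22 and 0.24. Psmb2 was 0.29 higher in hypoxia and 0.10 higher in normoxia. Psmc6 was lower at both levels, at -0.43 and -0.19, as was Psmd8, at -0.22 in each. Psmd6 had 0.20 and 0.14 with its brightest probe set but -0.91 and -0.81 with the other, so its direction by genotype is not settled. Of the core's 14 genes, 9 were lower in hypoxia and 6 in normoxia, and of the base's 9 genes 7 and 5.

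**Figure D4:**
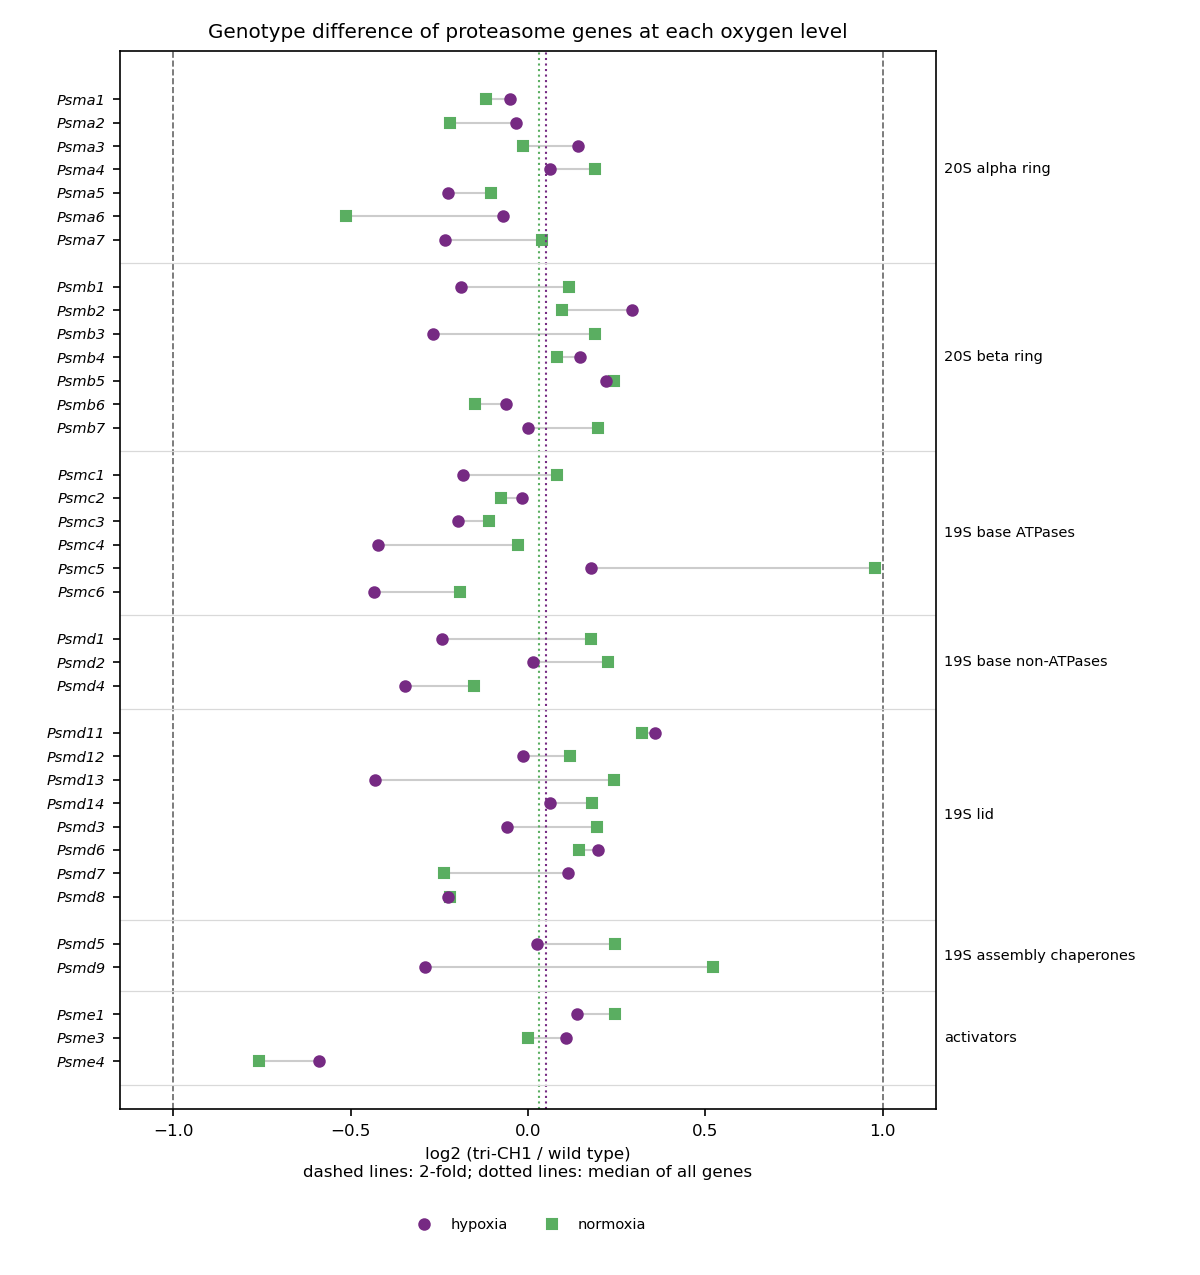
Log2 difference of tri-CH1 over wild type for each of the 36 genes in hypoxia (circles) and normoxia (squares), with dashed lines at 2-fold and dotted lines at the median of all genes. Most symbols lie near 0; Psmc5 in normoxia reaches 0.98 and Psme4 lies at -0.59 and -0.76.

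Probe sets of the same gene gave the only internal check. At 500 or more, 13 of the 36 genes had at least 2 probe sets, and 23 had 1. Over the 13, the second brightest probe set had a median hypoxia change of -0.29 in tri-CH1, against -0.25 for the brightest, and of -0.26 in wild type, against -0.08. The pairs had the same sign in 10 of 13 genes in tri-CH1 and 9 of 13 in wild type, and differed by 0.5 or more for Psmb3, Psmb4 and Psmd13 in tri-CH1 and for Psmc4 in wild type. The slight decrease in hypoxia was thus present in both rankings of probe sets, while single genes differed between their probe sets by as much as the decrease itself. The second Psmc4 probe set, at 114.3 in hypoxia and 248.8 in normoxia in tri-CH1 and at 225.4 and 608.9 in wild type, gave -0.31 in tri-CH1, a lower bound on the size since its hypoxia signal was under the floor, and -1.43 in wild type.

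**Figure D5:**
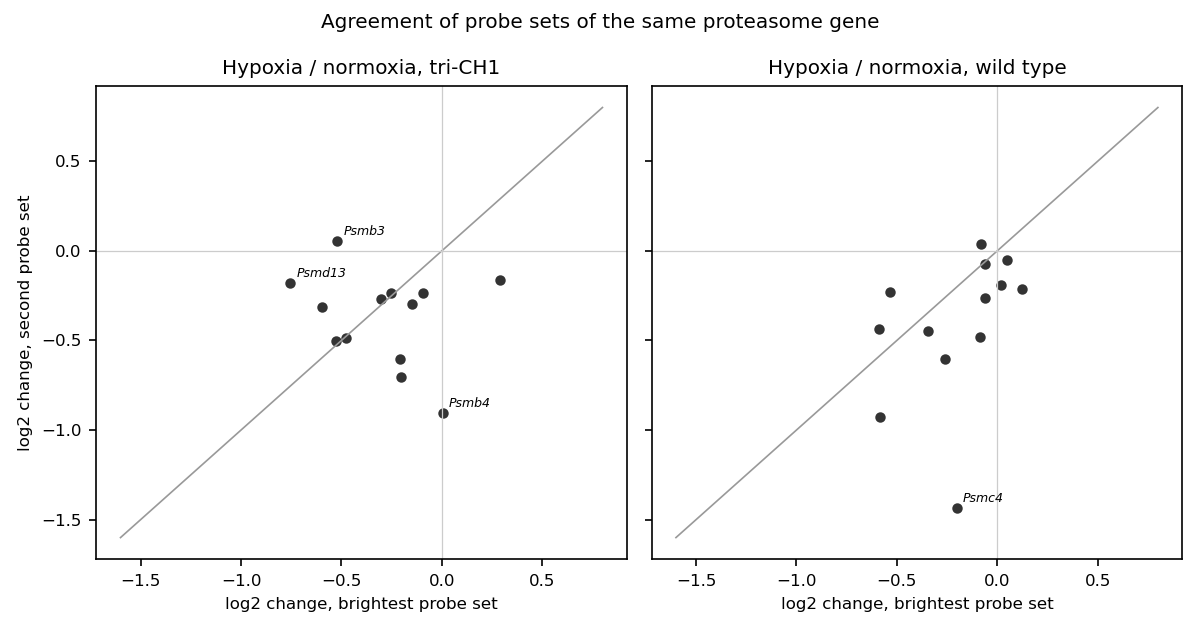
Log2 hypoxia change of the second brightest probe set against that of the brightest, for the 13 genes with at least 2 probe sets at 500, in tri-CH1 (left) and wild type (right), with the line of equality. Named points differ by 0.5 or more: Psmb3, Psmb4 and Psmd13 in tri-CH1 and Psmc4 in wild type.

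Genes that build, serve or control the proteasome were listed beside the subunits. Of 18 assembly and associated factors, 15 had a 1-symbol probe set, 13 reached 500, and none of the 13 was past 2-fold with oxygen or genotype. By comparison and direction, 0.987% to 3.76% of all genes were past 2-fold, so having none among so few is near the background. The median hypoxia change of the 13 was -0.06 in tri-CH1 and -0.25 in wild type, against -0.03 and -0.05 for all genes. As deposited, this was the other order from the subunits. The core maturation factor Pomp had 3263 in hypoxia and 3313 in normoxia in tri-CH1 (-0.02), against 3360 and 3244 in wild type (0.05). Pomp was thus level across the arrays. Psmg1, a chaperone of the alpha ring, had 1044 and 1212 in tri-CH1 (-0.22), against 557.4 and 954.7 in wild type (-0.78), and its wild-type hypoxia signal was the low one. Uchl5, a deubiquitinase of the cap, had 422.9 and 721.6 in tri-CH1 (-0.77), against 441.3 and 569.2 in wild type (-0.37). The proteasome inhibitor Psmf1 was higher in hypoxia in both, by 0.37 in tri-CH1 and 0.33 in wild type. Of the 6 genes listed for transcriptional control, 5 were measured and none was past 2-fold, again near the background. Nfe2l1, the activator of subunit genes, had 1331 and 1299 in tri-CH1 (0.04), against 1182 and 1463 in wild type (-0.31), while Vcp, the ATPase that extracts it from the endoplasmic reticulum membrane, had 6396 and 6965 in tri-CH1 (-0.12), against 5772 and 6502 in wild type (-0.17). These are RNA signals from 1 array per group, and the part of Nfe2l1 in the subunit changes was not tested. None of the 6 listed ubiquitin and ubiquitin-activating genes had a 1-symbol probe set here.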

How the data were processed

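RNA from 4 cultures of primary mouse embryonic fibroblasts was hybridised to 4 arrays, 1 per group. Per the labels, the authors used the Affymetrix statistical algorithm, which corrects background, for the signal intensity of each probe set, and scaled every array to a target of 500; the deposited intensity values are linear, and their 2% trimmed mean was 500.2 on each array. The software version is not given in the sources used here. Of 22690 probe sets, 20380 had 1 gene symbol in the platform annotation. The brightest probe set stood for each gene, signals under 200 were raised to 200, and a comparison took in the genes whose brighter array reached 500. Changes of at least 2-fold and at least 1.5-fold were counted by size beside the same over all genes, since 1 array per group allows no test; the number of arrays limits the precision. Genes named with all 4 signals were the catalytic beta subunits and their counterparts, the activators, and the highest and lowest gene of each role by log2 change; others are given by range, except Psmc4 (past 1.5-fold) and Psmd10 (just under the signal limit), which were chosen after their values were seen. The members and gene lists were chosen with earlier results of these data known. The alternatives were other floors and minimum signals, quantile, median and cyclic loess normalization, and other choices of probe set. The calls were also run on simulated data with increases of known size and an assumed noise. That run holds nothing of the spread between real cultures, so it lends the calls no support. Python 3.11.15, numpy 2.4.6, pandas 2.3.3, scipy 1.17.1, matplotlib 3.10.9 and limma 3.58.1 in R 4.3.3 were used.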

Additional observations from a re-analysis of the deposited data

Results flagged for a closer look

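The hypoxia change of Psmd9, a chaperone of cap assembly, went opposite ways in the genotypes: its signal was 479.7 in hypoxia and 622.5 in normoxia in tri-CH1, a log2 change of -0.38, against 587.0 and 433.8 in wild type, 0.44, a difference of -0.81. It was picked out from the genes with opposite signs because both changes exceeded the SD between probe sets of a gene, which holds no error between cultures or arrays and lends the difference no support. The difference was not tested, since there is 1 array per group, and it rests on 1 probe set with signals near 500.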

How the results depend on the processing

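No paired analysis was possible because each group has 1 array, and no array could be left out. Over the alternatives to the floor, the minimum signal, the normalization and the probe set, the median hypoxia change of the proteasome genes ran from -0.29 to -0.19 in tri-CH1 and from -0.20 to -0.07 in wild type. The genotype median ran from -0.12 to -0.01 in hypoxia and from -0.13 to 0.19 in normoxia, and the difference of hypoxia changes from -0.16 to 0.02. Less the median of all genes, these ran from -0.26 to -0.19, -0.16 to -0.07, -0.10 to -0.05, 0.00 to 0.14 and -0.17 to -0.10. Quantile normalization put 1 gene past 2-fold, Psmc5, in hypoxia in tri-CH1 and 1, again Psmc5, by genotype in normoxia; cyclic loess put 1, Psmc5, past 2-fold by genotype in normoxia. Its log2 values of -0.95 and 0.98 lay close to the threshold. In wild-type hypoxia, 1 gene (Psmd7) was past 1.5-fold with quantile normalization and 1 (Psmd7) with cyclic loess, against 3 as deposited, of which Psme3 lay on the 1.5-fold limit; the cause was not tested. The mean over the probe sets of Psme4 gave a genotype difference of -0.19 in hypoxia and -0.32 in normoxia. Of 143 summary values under the alternatives, 138 stayed within the limits used. A count was allowed to change up to 1.5-fold. A median was allowed to move by less than the SD between probe sets of a gene, which was at least 0.25. Each median as deposited was smaller in size than its limit, so a median could change sign and stay within it. The 138 therefore say little about the direction of the medians. Signals near the background, as those of Psmb8, Psmb9 and Psmd9, are the least reliable.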
